A study of Mus musculus with 4 samples.

Results

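Nuclear transport carries proteins and RNAs through the pores of the nuclear envelope. Importin alpha proteins bind cargo with a classical nuclear localization signal, importin beta 1 (Kpnb1) takes the pair through the pore, and the small GTPase Ran, loaded with GTP in the nucleus, releases the cargo there. Exportins bind cargo together with Ran-GTP and carry it out, and Cse1l is the exportin that returns importin alpha to the cytoplasm. The genes described here are 10 of the 23450 listed in the study: the importin alpha genes Kpna1, Kpna2, Kpna3, Kpna4 and Kpna6, the carriers Kpnb1 and Tnpo1, the exportins Cse1l and Xpo1, and Ran. Of these, Kpna2 was chosen by its measured values in these libraries, because it lay lower in LT-HSC, so its difference between the groups is given as a description with no test. The other 9 were listed as its family and partners. All 10 passed the filter on low values.

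The study sequenced RNA of blood-forming stem cells (HSCs) that were sorted from the bone marrow of mice, with 2000 cells in each of 4 libraries. The 2 libraries called LT-HSC (long-term HSC) were sorted as CD48-, CD150+, CD34- and CD9high, and the 2 called ST-HSC (short-term HSC) as CD48-, CD150+ and CD9low. For the ST-HSC gate the labels name no CD34 setting, and for neither group do they give strain, age, sex or the number of mice. If the libraries of a group were not from separate animals, p-values measure only the spread between these samples, which may be technical.

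Recovered reads ranged from 13064494 to 16144339 per library. LT-HSC 1 had 14548 genes above the lowest value of its file and the other libraries 13275 to 13341. Reads for the 10 genes ranged from 67 (Kpna6 in LT-HSC 1) to 5438 (Cse1l in ST-HSC 2). Levels are in CPM, library reads scaled to a common total of 1e6. All 8 HSC and progenitor markers on the marker list were read in each library and summed to 2433 to 3305 CPM, with Kit, the stem cell factor receptor gene, at 290.7 to 364.5 CPM. Of the markers listed for other lineages, Ctsg (granulocytes), Pax5 (B cells), Cd3e, Cd3d and Il7r (T cells) and Lepr (stroma) stood at the lowest value of the file in every library, computed here as 0 reads. Others were read in every library: the granulocyte gene Prtn3 at 215.9 to 289 CPM, Lyz2 at 140.3 to 152.8, the B cell gene Cd79b at 91.8 to 208.7, the globin gene Hbb-b1 at 108 to 130 and the endothelial gene Pecam1 at 59.6 to 123.5 CPM.

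Promoter sequence is shown first, because Kpna2 belongs to the genes known to peak in the G2 and M phases of the cell cycle, whose promoters often hold a cell cycle homology region (CHR) next to CCAAT boxes. RefSeq entries on build GRCm38.p6 matched 6 of the 10 genes, and the 250 bases before each start site were read. The sequences below are those of the importin alpha genes that had an entry and of their carrier Kpnb1, written 5′ to 3′ along the gene's strand, and all 3 genes lie on the minus strand. Capitals mark matches on either strand to CCAAT, to the CHR letters TTTGAA or TTCGAA, and to the GC box GGGCGG. No matches overlapped one another in these 3 promoters.
Kpna2, chr11:106999526-106999775: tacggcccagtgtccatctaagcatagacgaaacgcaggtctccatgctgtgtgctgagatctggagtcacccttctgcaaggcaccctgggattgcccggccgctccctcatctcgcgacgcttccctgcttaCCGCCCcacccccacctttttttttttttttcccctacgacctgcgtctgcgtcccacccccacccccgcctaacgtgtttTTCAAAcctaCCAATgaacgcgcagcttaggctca
Kpna4, chr3:69127093-69127342: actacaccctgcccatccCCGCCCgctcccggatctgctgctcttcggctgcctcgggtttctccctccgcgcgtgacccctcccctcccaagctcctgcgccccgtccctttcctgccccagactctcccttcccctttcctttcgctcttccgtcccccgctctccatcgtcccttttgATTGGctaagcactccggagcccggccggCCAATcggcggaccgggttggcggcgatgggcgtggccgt
Kpnb1, chr11:97187893-97188142: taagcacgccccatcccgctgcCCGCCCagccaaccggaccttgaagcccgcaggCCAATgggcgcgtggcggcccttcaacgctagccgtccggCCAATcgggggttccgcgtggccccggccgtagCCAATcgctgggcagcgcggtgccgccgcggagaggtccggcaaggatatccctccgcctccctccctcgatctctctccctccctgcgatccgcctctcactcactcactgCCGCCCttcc

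Kpna2 alone among the 6 genes held CHR letters in this window. Its match, TTCAAA on the printed strand, began 35 bases before the start site, with a CCAAT at 25 bases before it. CHR letters occurred in 17.1% of 32851 promoter windows of the same length, and CCAAT in 33.8%. A count of 1 of 6 genes with CHR letters is near the first of these shares. CCAAT was present in 4 of the 6 genes, with 3 matches in Kpnb1 and 2 in Kpna4, and was also found in Xpo1. The GC box was present in all 6 (32.7% of all windows). The windows that held it were 57.6% (Kpna2) to 81.6% (Ran) G and C bases, where the median of all windows was 52.4%. The part of base content in this count was not tested. Tnpo1 had 2 windows, and only 1 of them held a GC box. A gene was counted if any of its windows matched. The E-box CACGTG occurred in Ran only (6.02% of all windows). The E2F letters TTTCGCGC, TTTCCCGC, TTTGGCGC and TTTGCCGC occurred in none (1.86% of all windows), which says only that these letters are not in these windows.

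The comparison asked how transport gene transcripts differ between CD9-high, CD34-negative LT-HSC and CD9-low ST-HSC. Kpna2, which encodes importin alpha 1, lay well below its ST-HSC level in both LT-HSC libraries, and the differences of the other 9 genes ranged from -0.50 to 0.16 on the log2 scale. Its level was 53.6 CPM for LT-HSC 1 and 36.8 for LT-HSC 2, against 195.7 for ST-HSC 1 and 226.5 for ST-HSC 2. The mean of the LT-HSC libraries was 45.2 ± 11.9 CPM (SD, n = 2), and that of the ST-HSC libraries, 211.1 ± 21.8 CPM (SD, n = 2), was 4.67-fold higher. The log2 fold change, LT-HSC minus ST-HSC on the log2(CPM + 1) scale, was -2.22 ± 0.35 (SE), and it ranged from -2.48 to -1.95 with each library left out in turn. In bulk samples such as these, fewer cells that express a gene and less RNA of it per cell cannot be told apart.

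**Figure D1:**
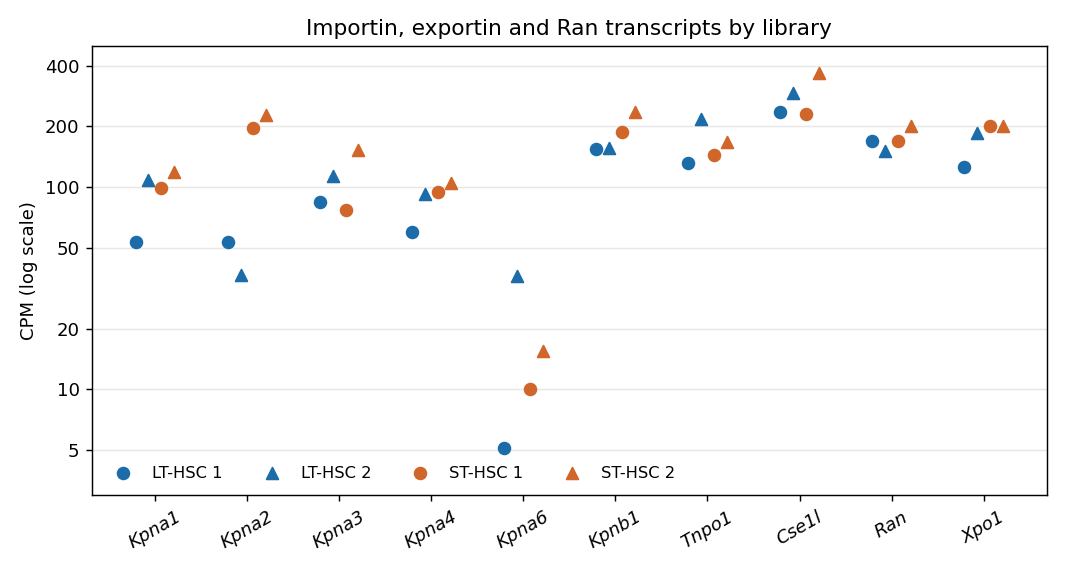
Level in CPM (log axis) of the 10 genes in each of the 4 libraries; circles are libraries numbered 1 and triangles those numbered 2, blue for LT-HSC and orange for ST-HSC. Kpna2 has both LT-HSC points below 54 CPM and both ST-HSC points above 195 CPM, while the points of most other genes lie close together or overlap.

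Most of the Kpna2 transcript is not unique in the mouse genome, and this bears on its level. Against the GENCODE M21 transcripts, 13 other annotated genes held a stretch of at least 300 bases at 90% identity or more to Kpna2. All but Gm10184, annotated as protein coding, and Med20 are annotated as processed pseudogenes, and Gm10184 was the closest, at 99.9% identity over 1968 bases. Of the 50-base windows of the Kpna2 transcript, 92.4% occurred exactly in a transcript of another gene. The same share was 15.4% for Ran, 14.1% for Tnpo1, 6.30% for Kpnb1 and 0 for the other 6 genes. How the authors counted reads with several matches was not given in the sources used here, so the Kpna2 level is uncertain.

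Of those 13 genes only Med20, which encodes a Mediator subunit, has a row in the files. A retained-intron transcript of Med20 carries 1891 bases at 92.6% identity to Kpna2. Med20 stood at 156.4 and 134.6 CPM in LT-HSC 1 and 2 and at 314.7 and 270.9 CPM in ST-HSC 1 and 2, so its LT-HSC libraries also lay below both ST-HSC libraries. Its log2 fold change was -1.0 ± 0.24 (SE, limma adjusted p = 0.716), and it was named after its values were seen. The part of shared reads in either gene's values was not tested.

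No gene in the study reached the threshold. When limma was run on the 12569 genes that passed the filter, Kpna2 and the other 9 among them, 0 (0.00%) had an adjusted p under 0.05, with 814 under an unadjusted p of 0.05 by limma and 585 by limma-voom, which also gave 0 adjusted calls. Among the 9 genes other than Kpna2, the smallest limma adjusted p was 0.838, for Kpnb1. Both LT-HSC libraries lay below both ST-HSC libraries in 4 of these 9 genes (Kpna4, Kpnb1, Ran and Xpo1), where 17.5% of all tested genes did so, and above both in 0 of 9, where 16.1% did. Kpna2, which was chosen for this pattern, makes the first count 5 of 10. The median log2 fold change was -0.30 over the 10 genes and -0.20 over the 9, against -0.01 over all genes tested. The median of the 10 was -0.050 without LT-HSC 1, -0.55 without LT-HSC 2 and -0.48 without ST-HSC 1. The median of the 9 was 0.0067 without LT-HSC 1, -0.44 without LT-HSC 2, -0.48 without ST-HSC 1 and -0.084 without ST-HSC 2. Without LT-HSC 1, the count above both ST-HSC libraries was 2 of 9 (Kpna6 and Tnpo1), with 32% over all genes, and the count below stayed at 4 of 9, with 36.8%. Without LT-HSC 2 the count below was 7 of 9, with 34.7% over all genes, and without ST-HSC 1 it was 7 of 9, with 32.1%. Without ST-HSC 2 it was 4 of 9 with 32% below, and 2 of 9 (Kpna3 and Cse1l) with 28.9% above.

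**Figure D2:**
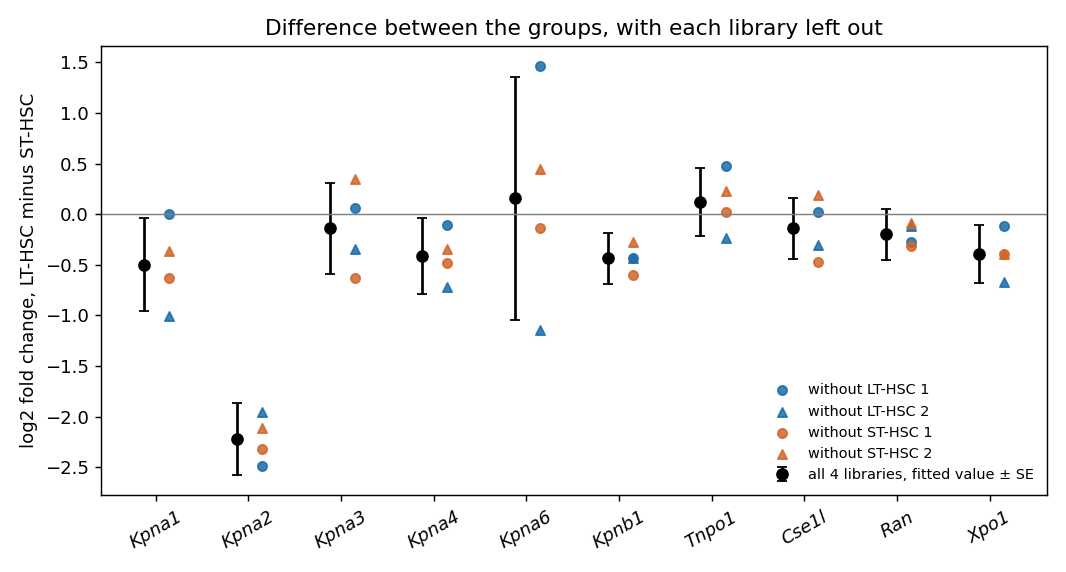
Log2 fold change (LT-HSC minus ST-HSC) of each gene from all 4 libraries (black, bars are SE) and with each library left out (coloured). Kpna1, Kpna3, Kpna6, Tnpo1 and Cse1l cross 0 with at least 1 library left out; Kpna2 was chosen on these libraries, so its values from -2.48 to -1.95 are no sign of stability.

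The 5 importin alpha genes among the 10 fall into subfamilies by sequence, with Kpna2 apart from the others, Kpna3 and Kpna4 together, and Kpna1 and Kpna6 together. Kpna1 (importin alpha 5) stood at 53.8 and 109.2 CPM in LT-HSC 1 and 2 and at 99.3 and 119.0 CPM in ST-HSC 1 and 2. LT-HSC 1 was low and LT-HSC 2 fell within the ST-HSC range, so the groups overlapped, with a log2 fold change of -0.50 ± 0.46 (SE, limma adjusted p = 0.935). That value was 0.0067 without LT-HSC 1 and -1.0 without LT-HSC 2. Kpna6 (importin alpha 7), the least abundant of the 10, was the most uneven, at 5.12 CPM for LT-HSC 1 and 36.3 for LT-HSC 2, with 10.1 and 15.6 CPM in ST-HSC 1 and 2 between them. The 2 LT-HSC libraries differed 7.09-fold in Kpna6, and its log2 fold change of 0.16 ± 1.2 (SE, limma adjusted p = 1.0) became -1.15 when LT-HSC 2 was left out and 1.46 when LT-HSC 1 was.

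Kpna3 (importin alpha 4) stood at 85.02 and 113.3 CPM in LT-HSC 1 and 2 and at 76.8 and 152.7 CPM in ST-HSC 1 and 2. Both of its LT-HSC values lay between the ST-HSC values, and the log2 fold change was -0.14 ± 0.45 (SE, limma adjusted p = 1.0). Kpna4 (importin alpha 3) stood at 60.3 and 92.7 CPM in LT-HSC 1 and 2 and at 94.9 and 105.1 CPM in ST-HSC 1 and 2. Its groups did not overlap, but LT-HSC 2 and ST-HSC 1 lay closer to each other than the LT-HSC libraries did. The log2 fold change of Kpna4 was -0.41 ± 0.38 (SE, limma adjusted p = 0.935), or -0.11 without LT-HSC 1.

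Since these genes differ in length, their makeup was read per kilobase of coding sequence. On that scale Kpna2 gave 20.7% and 9.46% of the summed importin alpha level in LT-HSC 1 and 2, and 41.0% and 36.5% in ST-HSC 1 and 2. It was the largest contributor in both ST-HSC libraries, while Kpna3 was the largest in both LT-HSC libraries, at 33.3% and 29.5%. As a plain share of importin alpha reads, Kpna2 held 20.8% (95% exact Clopper-Pearson interval 19.4 to 22.2) in LT-HSC 1, 9.48% (8.77 to 10.2) in LT-HSC 2, 41.0% (39.9 to 42.2) in ST-HSC 1 and 36.6% (35.6 to 37.6) in ST-HSC 2. Such intervals hold for counting error alone, as PCR copies of a molecule are not independent. Per kilobase of transcript, Kpna2 has the shortest transcript and a mean share of 26.5% in LT-HSC and 56.8% in ST-HSC, against 15.1% and 38.7% per coding kilobase. Without Kpna2, the other 4 importin alpha genes summed to 204.3 and 351.5 CPM in LT-HSC 1 and 2 and to 281.1 and 392.4 CPM in ST-HSC 1 and 2, so those sums overlapped between the groups.

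**Figure D3:**
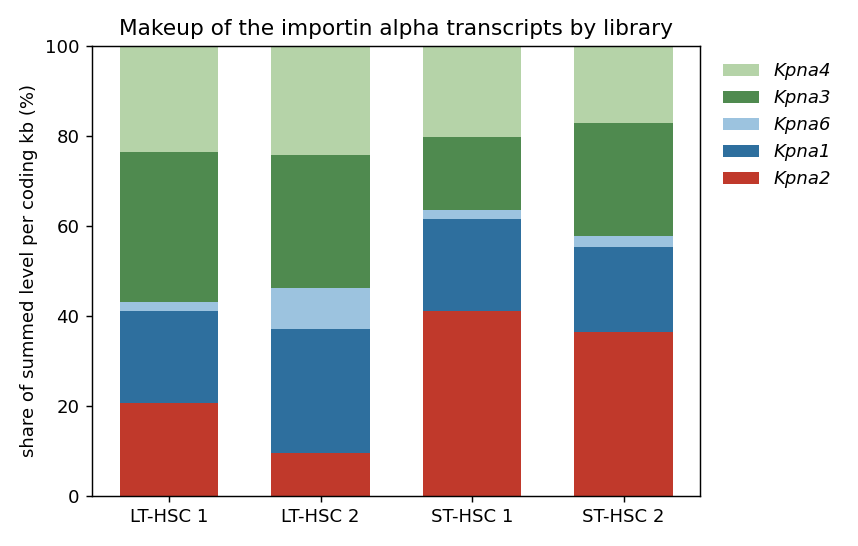
Share (%) of each of the 5 genes in the summed importin alpha level per coding kilobase, one stacked bar for each library with no error bars. The Kpna2 segment takes 20.7% and 9.46% of the LT-HSC bars and 41.0% and 36.5% of the ST-HSC bars.

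Among the carriers, Kpnb1 (importin beta 1) stood at 155.4 and 155.6 CPM in LT-HSC 1 and 2 and at 188.5 and 235.8 CPM in ST-HSC 1 and 2. The LT-HSC libraries were close to each other and below both ST-HSC libraries, and the log2 fold change was -0.44 ± 0.25 (SE, limma adjusted p = 0.838), or -0.28 without ST-HSC 2. Per coding kilobase, the level of Kpna2 over that of Kpnb1 was 0.571 and 0.392 in LT-HSC 1 and 2 and 1.72 and 1.59 in ST-HSC 1 and 2. Tnpo1 (transportin 1), which imports RNA-binding proteins without importin alpha, stood at 131.3 and 216.7 CPM in LT-HSC 1 and 2 and at 144.2 and 166.6 CPM in ST-HSC 1 and 2. Its ST-HSC values lay between its LT-HSC values, with a log2 fold change of 0.12 ± 0.34 (SE, limma adjusted p = 1.0).

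The exportin Cse1l stood at 235.5 and 294.0 CPM in LT-HSC 1 and 2 and at 229.8 and 366.5 CPM in ST-HSC 1 and 2. These groups overlapped, with a log2 fold change of -0.14 ± 0.30 (SE, limma adjusted p = 1.0). Xpo1 (CRM1), the exportin for proteins with a leucine-rich export signal, stood at 125.6 and 184.7 CPM in LT-HSC 1 and 2, and at 199.9 and 200.9 CPM in the ST-HSC libraries. LT-HSC 1 was low for Xpo1 and LT-HSC 2 was close to ST-HSC, and its log2 fold change of -0.39 ± 0.29 (SE, limma adjusted p = 0.885) was -0.12 without LT-HSC 1. Ran stood at 169.7 and 151.9 CPM in LT-HSC 1 and 2 and at 170.2 and 200.1 CPM in ST-HSC 1 and 2. LT-HSC 1 and ST-HSC 1 were nearly equal in Ran, so the groups only just failed to overlap, with a log2 fold change of -0.20 ± 0.25 (SE, limma adjusted p = 0.979). That value was -0.084 without ST-HSC 2, -0.12 without LT-HSC 2 and -0.32 without ST-HSC 1.

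In order of mean level per coding kilobase over the 4 libraries, Ran came first at 267 CPM per kilobase, followed by Cse1l at 96.6, Kpna2 at 80.8, Kpnb1 at 70.0, Kpna3 at 68.4, Tnpo1 at 61.7, Kpna1 at 59.1, Kpna4 at 56.5, Xpo1 at 55.3 and Kpna6 at 10.4. Ran ranged from 234.5 to 308.8 CPM per coding kilobase and lay above every other gene in each library, and Kpna6, at 3.19 to 22.6, lay below every other gene in each library. The ranges of neighbours among the 8 genes between them overlapped. The place of Kpna2 differed by group: its mean was 28.5 ± 7.47 CPM per coding kilobase in LT-HSC (SD, n = 2), above only Kpna6, and 133.0 ± 13.7 in ST-HSC (SD, n = 2), below only Ran. The place of Ran depended on the length used, since per kilobase of transcript Cse1l had a mean of 77.3 CPM, Ran 71.4 and Kpna2 62.4.

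Profiles across the libraries were compared as the Euclidean distance between log2(CPM + 1) values, each gene centred on its mean over the 4 libraries, among genes with at least 20 CPM on average. Kpna6 did not reach this level, and Kpna2 was chosen on these values, so its place is a description. The nearest to Kpna2 of the 8 other genes was Kpnb1 at a distance of 1.82, which ranked 1029 of 9049 genes. Med20 ranked 198 at a distance of 1.27. The 5 genes nearest to Kpna2 were Pou2f1 (0.30), Rbbp8 (0.34), Cdca2 (0.35), Pbk (0.38) and Fam188a (0.42). Pou2f1 encodes the transcription factor Oct-1, Rbbp8 the DNA end resection factor CtIP, Cdca2 a mitotic phosphatase regulator and Pbk a mitotic kinase. Among the other genes, the closest pair was Kpna4 and Xpo1, at a distance of 0.11, followed by Kpna3 and Cse1l at 0.23. With 4 libraries many genes share a profile, so these distances are descriptions.

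**Figure D4:**
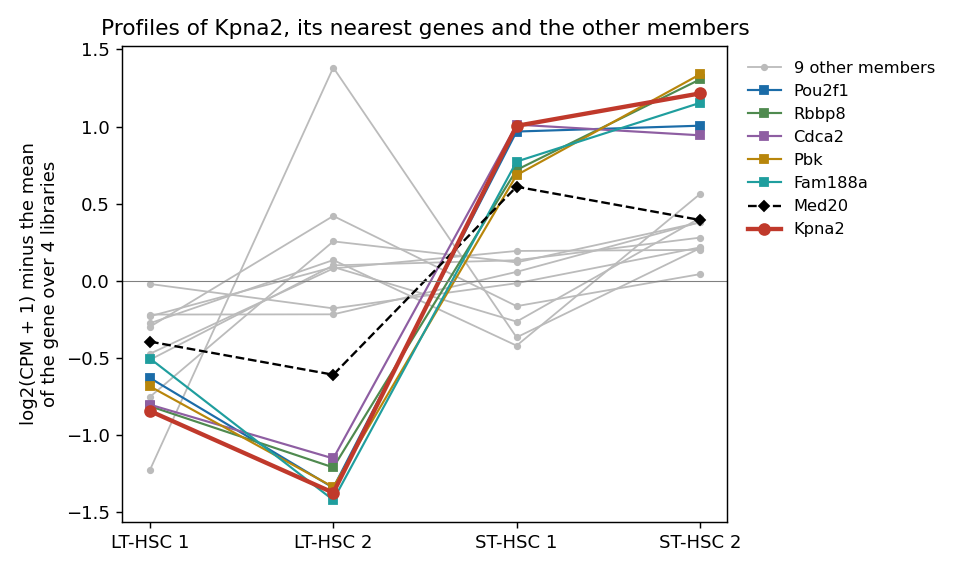
Log2(CPM + 1) of each gene minus its mean over the 4 libraries, for Kpna2 (red), its 5 nearest genes (coloured), Med20 (dashed) and the 9 other members (grey); lines only join the values of a gene, and the libraries have no order. Kpna2 and its nearest genes are below 0 in both LT-HSC and above 0 in both ST-HSC libraries, and 8 of the 9 grey lines stay between -1 and 1, the exception being Kpna6.

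Genes of the dividing cell were read beside Kpna2. The list of G2/M phase genes summed to 1673 and 1205 CPM in LT-HSC 1 and 2 and to 3239 and 4315 CPM in ST-HSC 1 and 2. Of its 39 tested genes, 30 had both LT-HSC libraries below ST-HSC (17.5% of all tested genes did) and 0 had them above (16.1%), 0 passed at an adjusted p under 0.05 by limma, and the median log2 fold change was -1.73. Top2a, the topoisomerase that untangles chromosomes, was the most abundant of them, at 94.2 and 117.3 CPM in LT-HSC 1 and 2 and at 383.9 and 579.2 CPM in ST-HSC 1 and 2. The next, Prc1, had 180.0 and 39.5 CPM in LT-HSC 1 and 2 and 195.8 and 410.4 CPM in ST-HSC 1 and 2. For Prc1, LT-HSC 1 was thus close to ST-HSC 1. For the list of S phase genes, 19 of 28 lay below both (17.5% of all tested genes) and 0 above both (16.1%), 0 passed, and the median was -0.95. Its 2 most abundant genes differed less, with log2 fold changes of -0.28 for Mcm6, which overlapped, and -0.34 for Pcna, which did not. Among the lists of other lineages, the 4 megakaryocyte and platelet genes summed to 47.2 and 29.5 CPM in LT-HSC 1 and 2 and to 202.1 and 140.8 CPM in ST-HSC 1 and 2, and the groups did not overlap. Pf4 gave most of the sum in both LT-HSC libraries, and Itga2b, at 2.45 and 5.01 CPM in LT-HSC 1 and 2, gave most of it in ST-HSC, at 151.6 and 105.4 CPM. The erythroid regulator gene Klf1 had levels of 0.306 and 0.124 CPM for LT-HSC 1 and 2, compared with 27.5 and 9.44 for ST-HSC 1 and 2. The granulocyte gene Mpo had 0 and 0.0619 CPM compared with 10.04 and 21.3. Epor and Elane, of the same lists, had higher means in LT-HSC. Epor (erythroid) had 50.8 and 26.6 CPM in LT-HSC 1 and 2 against 7.38 and 21.1 CPM in ST-HSC 1 and 2. Elane (granulocytes) had 20.1 and 0 CPM against 0 and 3.24 CPM, with overlap. Both LT-HSC libraries lay below ST-HSC in 1 of 4 tested erythroid genes and above in 1. Among 6 tested granulocyte and monocyte genes, 2 lay below and 1 above. Over all tested genes the shares were 17.5% and 16.1%. The sums of the erythroid list (192.3 to 276.3 CPM over the 4 libraries), the granulocyte and monocyte list (383.1 to 509.0 CPM, mostly Prtn3 and Lyz2), the B cell list (104.7 to 208.7 CPM) and the endothelial and stromal list (61.9 to 147.9 CPM) were closer between the groups. The erythroid sums did not overlap, at 195.0 and 192.3 CPM in LT-HSC 1 and 2 and 276.3 and 205.8 CPM in ST-HSC 1 and 2. The sums of the others did. The T and NK cell list, mostly Klrb1c, summed to 10.2 and 60.5 CPM in LT-HSC and to 0 and 4.58 CPM in ST-HSC. The part of dividing cells or of these other cells in the Kpna2 difference was not tested.

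The wider transport machinery was read from lists of other genes. Of 69 listed genes, 66 were tested, and 0 passed at an adjusted p under 0.05 by limma in either direction. At an unadjusted p under 0.05, 6 were lower in LT-HSC and 1 was higher, where the shares over all tested genes were 3.60% lower and 2.87% higher. The median log2 fold change of the 66 was -0.19. Both LT-HSC libraries lay below both ST-HSC libraries in 18 of them, where 17.5% of all tested genes did so, and above both in 10, where 16.1% did. The second count is near the share over all genes.

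**Figure D5:**
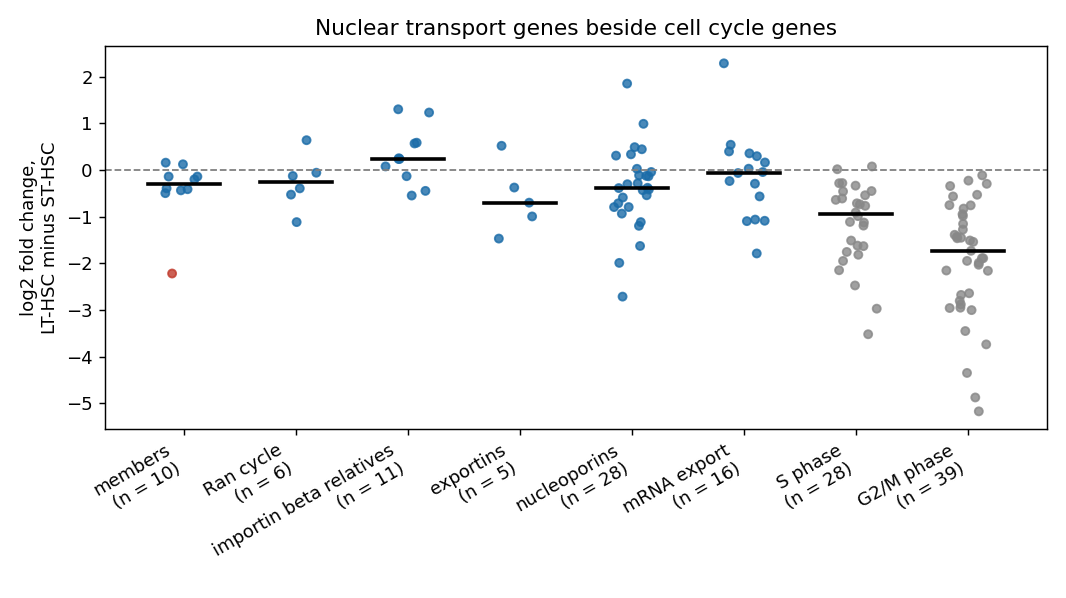
Log2 fold change (LT-HSC minus ST-HSC) of each tested gene (dots) by list, with the list's median (black bar) and the median of all tested genes (dashed line, at -0.01); Kpna2 is red, and the cell cycle lists are grey. The medians run from 0.24 for importin beta relatives to -0.70 for exportins among the transport lists, and stand at -0.95 and -1.73 for the S and G2/M phase lists.

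No gene of the Ran cycle list passed the test. Rcc1, the nucleotide exchange factor that loads Ran with GTP on chromatin, stood at 104.1 and 80.4 CPM in LT-HSC 1 and 2 and at 140.2 and 125.0 CPM in ST-HSC 1 and 2, with no overlap and a log2 fold change of -0.53 ± 0.32 (SE, limma adjusted p = 0.851). Rangap1, the GTPase activator of Ran, was at 23.0 CPM for LT-HSC 1, against 128.4 for LT-HSC 2 and 142.6 and 100.8 CPM in ST-HSC, so its groups overlapped and LT-HSC 1 stood apart. Ranbp1, a cofactor of Rangap1, ranged from 162.2 to 202.2 CPM, and Nutf2, the import factor of Ran itself, from 71.7 to 117.5 CPM, both with overlap. Of the 6 tested genes of this list, 1 had both LT-HSC libraries below ST-HSC, and 1 (Ranbp3, a cofactor of Xpo1) had them above, near the shares of 17.5% and 16.1% over all tested genes.

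The relatives of importin beta and the exportins had medians of opposite sign. Of 11 importin beta relatives and other import receptors, 8 had a log2 fold change above 0 and the median was 0.24. Both LT-HSC libraries lay above ST-HSC in 4 of the 11 (Tnpo2, Tnpo3, Ipo4 and Ipo8), where 16.1% of all tested genes did so, and below in 2 (Snupn and Kpna7), where 17.5% did. Kpna7, the importin alpha gene of eggs and early embryos, was near the filter, at 1.45 to 1.82 CPM. Ipo4, the most abundant, stood at 380.2 and 363.7 CPM in LT-HSC 1 and 2 and at 356.5 and 172.0 CPM in ST-HSC 1 and 2, so that ST-HSC 2 was low and ST-HSC 1 close to LT-HSC. Tnpo3, which imports splicing factors, had levels of 232.3 and 180.6 CPM in LT-HSC 1 and 2, and of 108.4 and 175.2 CPM in ST-HSC 1 and 2. None of the 11 had an unadjusted p under 0.05 by limma.

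Of the 5 exportins other than Cse1l and Xpo1, 3 had both LT-HSC libraries below ST-HSC (17.5% of all tested genes) and 1 had them above (16.1%), with a median of -0.70. Xpo6, the exportin of actin and profilin, stood at 169.7 and 150.5 CPM in LT-HSC 1 and 2 and at 304.6 and 222.5 CPM in ST-HSC 1 and 2. Its log2 fold change was -0.70 ± 0.27 (SE), with an unadjusted p of 0.0463 and a limma adjusted p of 0.767. Xpo5, which exports microRNA precursors, had 8.10 CPM for LT-HSC 1 and 45.8 for LT-HSC 2, against 59.2 and 53.3 CPM in ST-HSC. Xpot, the tRNA exportin, lay above both ST-HSC libraries, at 51.7 and 71.7 CPM against 41.3 and 43.1 CPM. The difference between the import and export receptor lists was not tested.

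Nucleoporins build the pore that these carriers cross. Of 28 tested, 9 had both LT-HSC libraries below ST-HSC (17.5% of all tested genes) and 1 had them above (16.1%), with a median log2 fold change of -0.38 and 0 past an adjusted p of 0.05 by limma. Tpr, of the nuclear basket, was the most abundant, at 343.9 and 527.0 CPM in LT-HSC 1 and 2 and at 413.5 and 528.9 CPM in ST-HSC 1 and 2, with overlap. Nup62, of the central channel, stood at 278.7 and 235.0 CPM in LT-HSC 1 and 2 and at 430.2 and 459.8 CPM in ST-HSC 1 and 2. The log2 fold change of Nup62 was -0.79 ± 0.19 (SE, limma adjusted p = 0.716). Nup210, a membrane nucleoporin, overlapped between the groups, at 187.6 to 322.4 CPM.

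With an unadjusted p under 0.05 there were 5 of the 28 nucleoporins, all lower in LT-HSC, where 3.60% of all tested genes were lower and 2.87% higher. Beside Nup62 they were Nup93, Nup155, Nup214 and Nup50, named after their values were seen. Nup50, a basket protein that binds importin alpha, had levels of 7.57 and 34.3 CPM in LT-HSC 1 and 2, and of 96.2 and 133.1 CPM in ST-HSC 1 and 2. Nup93, a scaffold protein of the inner ring, had levels of 14.8 and 14.4 CPM in LT-HSC 1 and 2, and of 59.0 and 63.3 CPM in ST-HSC 1 and 2. Limma adjusted p was 0.716 for both.

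The mRNA export genes had a median of -0.05, with 3 of 16 below and 3 above both ST-HSC libraries, near the 17.5% and 16.1% over all tested genes. Thoc2, of the THO complex that joins transcription to export, ranged from 232.9 to 383.7 CPM, the helicase gene Ddx39b from 242.3 to 301.6 CPM, and the export receptor gene Nxf1 from 91.9 to 150.6 CPM, all with overlap. Pcid2, a subunit of the TREX-2 export complex, was the 1 transport gene higher in LT-HSC at an unadjusted p under 0.05, and was named after its values were seen. It stood at 91.7 and 47.6 CPM in LT-HSC 1 and 2 and at 8.77 and 18.4 CPM in ST-HSC 1 and 2, with a limma adjusted p of 0.746.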

How the data were processed

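Each library was made from 2000 sorted cells with the SMARTer cDNA kit, per the labels' protocols. TopHat and the mm9 build are named in the submitters' processing notes, and the read counter and annotation were not given in the sources used here. The 4 deposited files hold log2 values made by the authors for 23450 genes. Their low steps are whole reads plus 1, scaled to 1e6 library reads. Of values up to 100 reads, 100% lay within 0.1 of a whole number. A floor of 1 read for unread genes would give the same steps, in which case each count is 1 higher and the lowest value holds 0 or 1 read. Reads (13064494 to 16144339) and CPM were computed from these steps, and 3 reads equal 0.186 to 0.229 CPM.

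The 12569 genes at 1 CPM or more in 2 or more libraries were tested as log2(CPM + 1) with limma 3.58.1 (trend, robust) in R 4.3.3, Benjamini-Hochberg adjusted at 0.05. The fit was also run on simulated reads with the same spread setting for all genes. Spread in these libraries differs by gene, so that run does not show what the fit can detect here. The 2 libraries of a group were not copies of each other (chi-square per degree of freedom 183.4 within LT-HSC and 143.6 within ST-HSC). Lengths are of GENCODE M21 principal transcripts, and copies were found with blastn 2.17.0. Promoters are RefSeq's. Named genes are the members, the Ran cycle, import and export receptor genes, and the 3 most abundant nucleoporins and mRNA export genes. To these come the 2 most abundant or unread genes of other lists, and the 5 genes nearest to Kpna2. Kit, Klf1, Epor, Mpo and Elane were named outside this rule, with their values already seen. So were the genes marked as named or read after their values were seen. Members and lists were chosen with earlier results of these data known. Alternatives were other scaling, filters, pseudocount and tool, the replicate block and each library left out.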

Additional observations from a re-analysis of the deposited data

How the results depend on the processing

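Over 12 alternatives, 0 genes passed at an adjusted p under 0.05 in each, by limma or limma-voom. For the 10 genes, 8 of 120 values changed sign, all with a library left out, in 5 genes: Kpna1 (0.0067 without LT-HSC 1, range -1.0 to 0.0067), Kpna3 (0.06 without LT-HSC 1, 0.35 without ST-HSC 2, lowest -0.63), Kpna6 (-1.15 without LT-HSC 2, -0.13 without ST-HSC 1, highest 1.46), Tnpo1 (-0.24 without LT-HSC 2, highest 0.48) and Cse1l (0.02 without LT-HSC 1, 0.19 without ST-HSC 2, lowest -0.48). Leaving out a library moved the median of the 10 from -0.55 to -0.050 and that of the 9 genes other than Kpna2 from -0.48 to 0.0067. Other settings gave -0.30 to -0.27 for the 10. The filters, the robust setting of limma and the replicate block cannot change a gene's fold change. Their values among the 120 therefore repeat the main ones and show nothing about stability. Leaving out a library leaves its group with 1 sample, assumed to vary like the other group. Length per transcript, chosen after seeing the data as were the deposited values as they are, gave Kpna2 26.5% of importin alpha in LT-HSC and 56.8% in ST-HSC. With the replicate block, 0 genes passed by limma, and 876 had an unadjusted p under 0.05 against 814. The block cannot move the median of -0.30, as each group has 1 library of each number. The labels do not say that library numbers mark a pair, and the correlation of deviations between same-numbered libraries was 0.05. With 2 libraries a group, precision is limited by their spread more than by read counts.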

Other observations

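A few genes with Ran-binding names lay outside the lists and were read after the values were seen. Ranbp6, an importin beta relative, stood at 8.79 and 24.3 CPM in LT-HSC 1 and 2 and at 38.9 and 50.8 CPM in ST-HSC 1 and 2, with a log2 fold change of -1.53 ± 0.78 (SE, limma adjusted p = 0.815). Ranbp10, which binds Ran, stood at 58.0 and 33.9 CPM in LT-HSC 1 and 2 and at 31.7 and 0.472 CPM in ST-HSC 1 and 2, so its difference rested largely on ST-HSC 2.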
